A study of Mus musculus with 6 samples.

Results

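The VEGF family genes Vegfa, Vegfb, Vegfc, Pgf, Flt1 and Flt4 were followed in spheroids grown from 4T1, a line of mouse triple-negative breast cancer. They were taken by name as the rows of the count table whose Ensembl identifiers carry these symbols in GENCODE release M21, and all 6 were among the 48820 genes listed. The libraries were 3 of spheroids labelled LATS1/2 double-knockout (dKO) and 3 of spheroids labelled wild type (WT). Both groups grew in RPMI with serum and antibiotics, and the labels give no treatment or time. The labels call the libraries biological replicates without saying whether they came from separate cultures, or whether the dKO line is 1 clone, so p-values measure the spread between these libraries, which may be technical.

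Vascular endothelial growth factors are secreted dimers that drive the growth of blood and lymphatic vessels. VEGF-A is the main signal to blood vessels, is induced by low oxygen and acts on the receptor kinases encoded by Flt1 and Kdr, while VEGF-B and placental growth factor (Pgf) bind the Flt1 product. VEGF-C is the main lymphatic signal and acts through the receptor encoded by Flt4, neuropilins serve as co-receptors, and tumour cells are a common source of the ligands. LATS1 and LATS2 are the Hippo pathway kinases that restrain the coactivators YAP and TAZ.

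The stretches of 250 bases before the RefSeq starts of Vegfb, Flt1, Vegfc and Vegfa (build GRCm38.p6) are shown because they are the start-proximal regulatory sequence of genes that were higher, lower or not called in dKO. They lie at chr19:6987652-6987901 (minus strand), chr5:147726012-147726261 (minus strand), chr8:54077282-54077531 (plus strand) and chr17:46032378-46032627 (minus strand), and each is read 5′ to 3′ on its gene's strand. Capitals mark matches, on either strand, to a GC box (GGGCGG) or a cyclic AMP response element (TGACGTCA), which did not overlap each other.
Vegfb: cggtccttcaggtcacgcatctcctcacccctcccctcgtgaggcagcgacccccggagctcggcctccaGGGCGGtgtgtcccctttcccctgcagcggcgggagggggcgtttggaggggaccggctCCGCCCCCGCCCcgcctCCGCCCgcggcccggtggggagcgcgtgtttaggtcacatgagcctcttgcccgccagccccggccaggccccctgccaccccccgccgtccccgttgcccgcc
Flt1: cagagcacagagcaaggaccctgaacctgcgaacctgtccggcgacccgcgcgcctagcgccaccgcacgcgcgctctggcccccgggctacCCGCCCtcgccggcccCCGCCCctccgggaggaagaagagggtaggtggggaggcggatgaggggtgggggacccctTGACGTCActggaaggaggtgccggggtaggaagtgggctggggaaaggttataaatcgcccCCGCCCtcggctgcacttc
Vegfc: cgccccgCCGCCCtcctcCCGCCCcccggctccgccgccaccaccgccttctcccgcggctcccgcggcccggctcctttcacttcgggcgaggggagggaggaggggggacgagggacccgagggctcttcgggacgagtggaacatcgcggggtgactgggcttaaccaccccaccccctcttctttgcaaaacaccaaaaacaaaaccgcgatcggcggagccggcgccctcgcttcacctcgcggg
Vegfa: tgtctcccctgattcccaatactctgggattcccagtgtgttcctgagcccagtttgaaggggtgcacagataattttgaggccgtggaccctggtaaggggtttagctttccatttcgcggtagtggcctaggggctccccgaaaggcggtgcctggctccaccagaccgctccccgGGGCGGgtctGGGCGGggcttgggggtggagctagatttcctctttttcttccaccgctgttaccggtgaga
Both Pgf windows, the Flt4 window and a second Vegfa window overlapped annotated exons and are not printed. The cyclic AMP response element in the Flt1 window spans bases -81 to -74 before the start, a motif present in 1.55% of the 32841 RefSeq windows of this length. A GC box was present in 7 of the 8 windows of the family, against 32.7% of all windows. The letters of a TEAD motif (GGAATG, present in 12.6% of all windows) and of an AP-1 motif (TGANTCA, 6.75%) were in 0 of the 8, and the hypoxia response core (ACGTG, 16.6%) was in 1, the second Vegfa window. A match is a description of letters and not a bound site.

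Library totals ran from 38194478 to 42486146 counts in dKO and from 40150225 to 49630116 counts in WT. Levels are given as CPM, the count relative to the library total after TMM scaling. Small values piled up at exactly 4 counts, so a read pair may add up to 4 counts, and 12 counts per library (0.242 to 0.314 CPM) was taken as the level that a count of 0 allows, for counting error only. WT 2 and dKO 3 stood apart from their groups on the second principal component of all tested genes, which held 4.82% of the variance, at 23.5 and -19.7. Lats1 averaged 50.9 ± 2.55 CPM in dKO and 153 ± 6.36 CPM in WT (SD, n = 3 each), and Lats2 was higher in dKO, at 77.9 ± 12.5 CPM in dKO and 27.2 ± 4.01 CPM in WT. The Lats2 transcript was thus not lost in dKO. Edits of a few bases cannot be seen in gene counts, so these levels cannot decide the genotype, and dKO and WT stand here for libraries labelled so. The epithelial tumour markers Epcam, Cdh1, Krt8, Krt18, Krt14 and Krt19 were counted in all 6 libraries. Of these, 3 (50%) were called higher and 3 (50%) lower in dKO, against 28.6% and 28.7% of all tested genes. Their summed level was 3413 to 4189 CPM in dKO and 4215 to 4675 CPM in WT. Krt5 was at 0 in all 6. The epithelial adhesion gene Epcam was at 288 ± 15.7 CPM in dKO and 795 ± 20.6 CPM in WT, Cdh1 (E-cadherin) at 861.5 ± 55.6 CPM in dKO and 412 ± 14.6 CPM in WT, and Krt19, a keratin, at 320 ± 46.3 CPM in dKO and 103 ± 6.95 CPM in WT.

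Of the 6 VEGF family genes, Vegfb was higher in dKO, Pgf, Flt1 and Vegfc were lower, Vegfa did not pass the test and Flt4 was too low to be tested. The test was edgeR's quasi-likelihood test across 15807 genes, with a gene called where its p, adjusted over all of them by the Benjamini-Hochberg method, was under 0.05. It called 57.3% of all tested genes, 28.6% as higher and 28.7% as lower in dKO, so 4 calls among 5 tested genes are to be read against that share. The median log2 fold change of the 5 tested genes was -0.82, against -0.005 over all tested genes. In bulk libraries, fewer cells that express a gene and less RNA per cell cannot be told apart. None of the 6 genes overlaps another annotated gene.

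**Figure D1:**
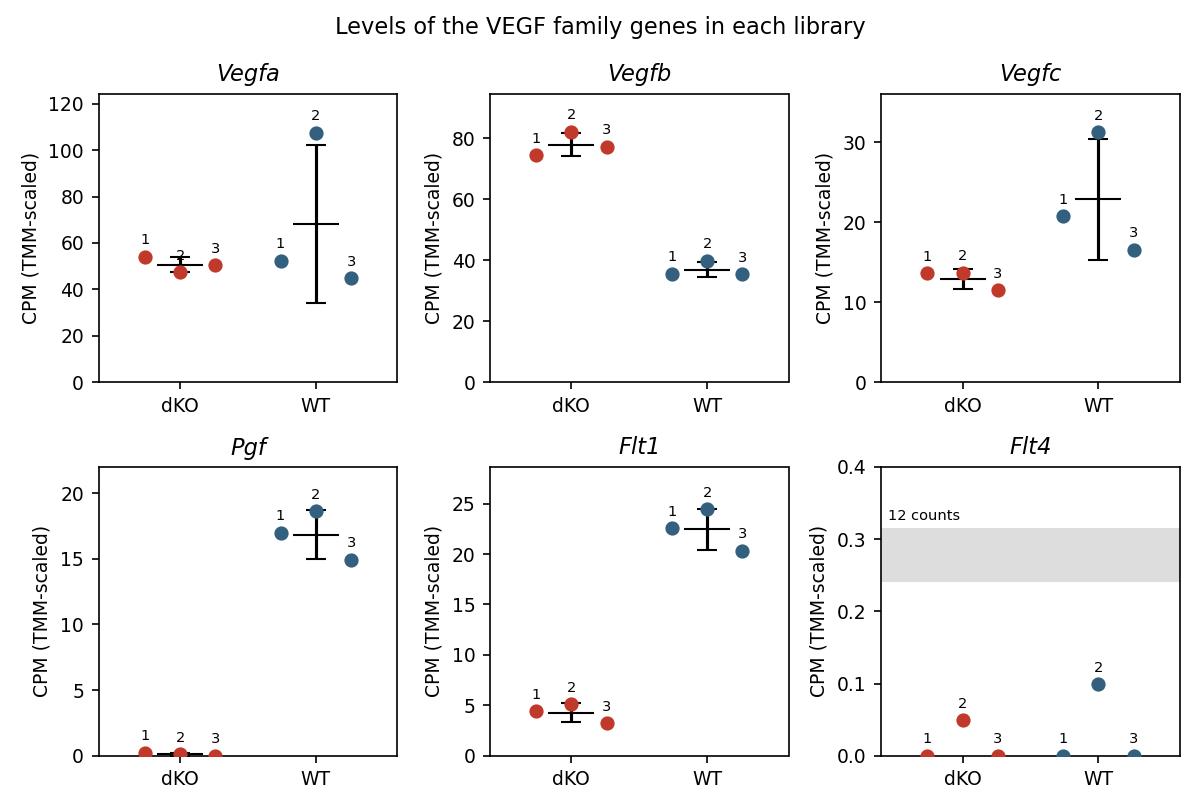
Level of each VEGF family gene in each library, in TMM-scaled CPM on an axis from 0, with dKO in red left of WT in blue. Small digits are replicate numbers, black lines are the mean ± SD of 3 libraries, and the grey band in the Flt4 panel is the level of 12 counts per library. The groups separate for Vegfb, Vegfc, Pgf and Flt1, and WT 2 stands far above the other WT libraries for Vegfa.

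Pgf encodes placental growth factor, a ligand of the Flt1 receptor (ENSMUSG00000004791, GRCm38 chromosome 12, 85166635 to 85177790, minus strand). It had 8, 4 and 0 counts in dKO 1, dKO 2 and dKO 3, against 837, 751 and 692 counts in WT 1, WT 2 and WT 3. Every dKO library was below the 12-count level, and the groups were far apart. The mean was 0.102 ± 0.105 CPM in dKO and 16.8 ± 1.86 CPM in WT (SD, n = 3 each). The fitted change on the log2 scale was -7.37 with an SE of 0.50 (edgeR, adjusted p = 4.08e-06), a size that is uncertain because the dKO counts are near 0. Taken as read pairs of 4 counts, the sums of 3 pairs in dKO and 570 pairs in WT give a level 169-fold lower in dKO, with an exact 95% interval of 57.4 to 820 for counting error only. Of all tested genes, 1.04% were called with a fitted fall at least as large, Pgf included.

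Vegfb encodes VEGF-B, another ligand of the Flt1 receptor (ENSMUSG00000024962, chromosome 19, 6982473 to 6987651, minus strand). It stood at 74.4, 82.1 and 77.1 CPM in dKO 1, dKO 2 and dKO 3, against 35.5, 39.8 and 35.4 CPM in WT 1, WT 2 and WT 3. All dKO libraries were above all WT libraries, and the spread within each group was small. The log2 fold change was 1.08 ± 0.09 (edgeR adjusted p = 9.6e-06). With each library left out in turn it lay between 1.04 and 1.13. Of all tested genes, 11.2% were called with a rise at least as large. The mean level was 77.9 ± 3.89 CPM in dKO and 36.9 ± 2.51 CPM in WT (SD, n = 3 each).

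Vegfc encodes VEGF-C, the lymphatic ligand (ENSMUSG00000031520, chromosome 8, 54077606 to 54187096, plus strand). It was at 13.6, 13.7 and 11.5 CPM in dKO 1, dKO 2 and dKO 3, against 20.7, 31.2 and 16.6 CPM in WT 1, WT 2 and WT 3. The groups did not overlap, which was also the case for 65.6% of all tested genes, and WT 2 was the highest library. The log2 fold change was -0.82 ± 0.22 (edgeR adjusted p = 0.0111). Without WT 2 it was -0.53 (edgeR adjusted p = 0.0197), and without WT 2 and dKO 3 together it was -0.45 (edgeR adjusted p = 0.0205). Over all alternatives the adjusted p ran from 0.0011 to 0.16, the highest being the test against a 1.5-fold change. Of all tested genes, 16.6% were called with a fall at least as large as that of Vegfc.

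Vegfa encodes VEGF-A, with 13 annotated transcripts that were counted together (ENSMUSG00000023951, chromosome 17, 46016993 to 46032369, minus strand). It was at 54.0, 47.5 and 50.4 CPM in dKO 1, dKO 2 and dKO 3, against 52.4, 107 and 44.8 CPM in WT 1, WT 2 and WT 3. The dKO libraries lay within the WT range, and WT 2 was the high one. The log2 fold change was -0.43 ± 0.32 and did not pass (edgeR adjusted p = 0.30). Without WT 2 its sign turned, at 0.06 (edgeR adjusted p = 0.66), within a range of 0.0846 to 0.84 over the alternatives, none of which called the gene.

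**Figure D2:**
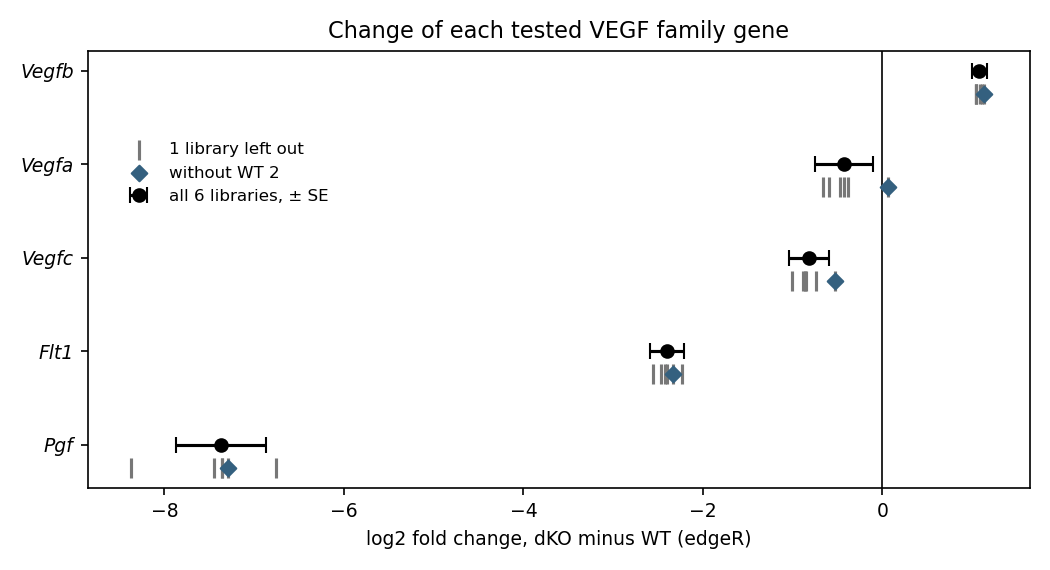
Log2 fold change, dKO minus WT, of the 5 tested genes by edgeR. Black points are the fit of all 6 libraries with its SE, grey ticks are fits with 1 library left out, and blue diamonds are the fit without WT 2. Vegfa crosses 0 without WT 2, while Vegfb stays above 0 and Vegfc, Flt1 and Pgf stay below 0 in every such fit.

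Levels of different genes were compared as TPM, which divides the count by the exon length of the gene and brings every library to the same total. Among the ligands, the order in dKO was Vegfb at 141 ± 7.35 TPM, Vegfa at 34.4 ± 2.12 TPM, Vegfc at 15.4 ± 1.42 TPM and Pgf at 0.102 ± 0.104 TPM, with no overlap between neighbours over the 3 libraries. In WT it was Vegfb at 69.9 ± 5.17 TPM, Vegfa at 48.5 ± 24.6 TPM, Vegfc at 28.4 ± 9.59 TPM and Pgf at 17.6 ± 2.09 TPM. In WT, Vegfb overlapped with Vegfa and Vegfa with Vegfc in their ranges, while Vegfc and Pgf did not overlap. Within each WT library Vegfa was above Vegfc, with ratios of Vegfc to Vegfa of 0.693, 0.509 and 0.647 in WT 1, WT 2 and WT 3. The summed level of the 4 ligands was 191 ± 5.69 TPM in dKO and 164 ± 41.1 TPM in WT, a difference within the spread of WT (exact two-sided permutation test, p = 0.4).

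The makeup of that sum differed. Vegfb was 71.8%, 75.4% and 74.5% of it in dKO 1, dKO 2 and dKO 3, against 45.4%, 35.9% and 49.7% in WT 1, WT 2 and WT 3. Pgf was 0.112%, 0.0499% and 0% in the dKO libraries, against 12.02%, 9.30% and 11.6% in the WT libraries, and its dKO counts were below the 12-count level. Vegfc was 8.05 ± 0.678% in dKO and 17.0 ± 1.66% in WT, and Vegfa was 18.0 ± 1.598% in dKO and 28.3 ± 6.96% in WT (SD, n = 3 each). None of the 4 shares overlapped between the groups, and each gave p = 0.1 in an exact two-sided permutation test, the smallest p that 3 against 3 libraries allow. Levels of 65.6% of all tested genes did not overlap either, and the shares sum to the whole, so they are not independent of each other, and Vegfa itself was not called. The Vegfa share depends on WT 2, and its difference of -10.3 percentage points became -6.30 without that library. The ratio of Vegfb to Vegfa per length was 3.68, 4.62 and 4.08 in the dKO libraries and 1.81, 0.989 and 2.11 in the WT libraries. The ratio of Vegfb to Vegfc was 8.33, 9.17 and 10.2 in the dKO libraries and 2.61, 1.94 and 3.26 in the WT libraries. Both ratios were higher in every dKO library than in every WT library (exact two-sided permutation test of the log2 ratios, p = 0.1 for each, the smallest possible).

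**Figure D3:**
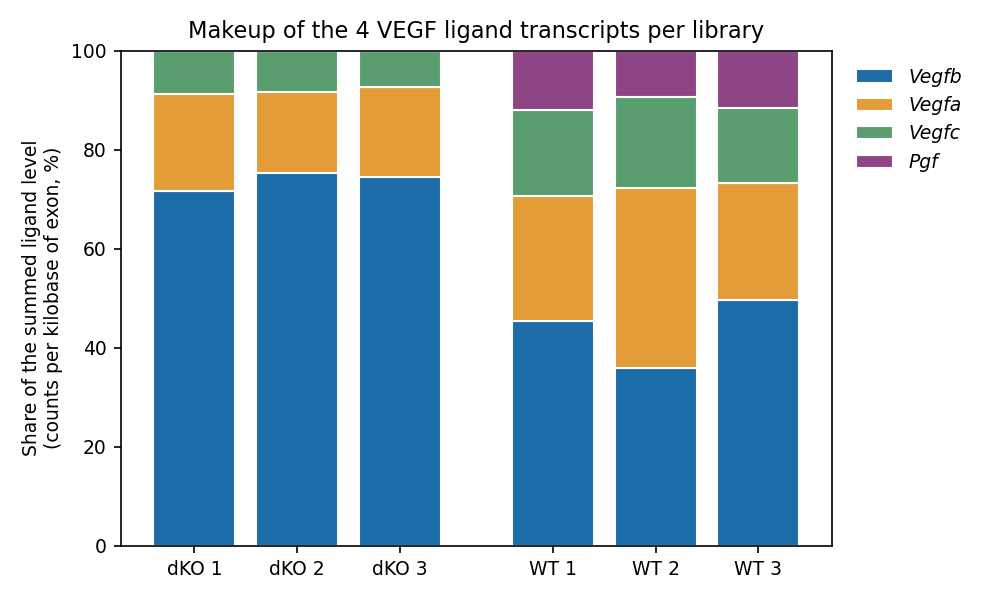
Share of each ligand in the summed level of the 4 ligands per library, in percent of counts per kilobase of exon, with dKO bars left of WT bars. Vegfb takes 71.8% to 75.4% in dKO and 35.9% to 49.7% in WT, and the Pgf segment of 9.30% to 12.02% in WT is too small to be seen in dKO.

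Among the receptors, Flt1 encodes VEGFR1, which binds VEGF-A, VEGF-B and placental growth factor (ENSMUSG00000029648, chromosome 5, 147561604 to 147726011, minus strand). It was at 4.40, 5.11 and 3.24 CPM in dKO 1, dKO 2 and dKO 3, against 22.6, 24.4 and 20.3 CPM in WT 1, WT 2 and WT 3. Every dKO library was below every WT library by a wide margin. The log2 fold change was -2.40 ± 0.19 (edgeR adjusted p = 8.69e-06), and 5.56% of tested genes were called with a fall at least as large. The gene is also known to give a soluble decoy receptor, and its 6 annotated transcripts were counted together.

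Flt4 encodes VEGFR3, the VEGF-C receptor (ENSMUSG00000020357, chromosome 11, 49609263 to 49652739, plus strand). It had 0, 2 and 0 counts in the dKO libraries and 0, 4 and 0 counts in the WT libraries, all below the 12-count level, so no fold is given. Kdr, the gene of the main VEGF-A receptor on blood vessels, had 0 counts in all 6 libraries. Kdr was thus not detected at this depth, and Flt4 was detected in dKO 2 and WT 2 alone, below that level.

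The co-receptor and remaining family list held Vegfd, Kdr, Nrp1 and Nrp2, of which 3 were tested. Among these, 0 were called higher and 1 (33.3%) lower, near the share of 28.7% called lower over all tested genes, where 28.6% were higher. Nrp1, a neuropilin that binds VEGF-A, averaged 159 ± 3.84 CPM in dKO and 207 ± 31.3 CPM in WT. It was called lower, by -0.38 ± 0.10 on the log2 scale (edgeR adjusted p = 0.0112, range 0.000505 to 1 over the alternatives). The highest of these came from the test against a 1.5-fold change, which asks for more by construction. Nrp2, a neuropilin that binds VEGF-C, was at 393 ± 71.4 CPM in dKO and 322 ± 78.0 CPM in WT and did not pass (edgeR adjusted p = 0.239). Without WT 2 the call of Nrp2 changed, at 0.50 on the log2 scale (edgeR adjusted p = 0.0266, range 3.2e-06 to 1 over the alternatives, the 1.5-fold test included). Vegfd, the ligand closest to Vegfc, had 20, 32 and 11 counts in the dKO libraries and 7, 15 and 0 counts in the WT libraries, and did not pass (edgeR adjusted p = 0.208). Without WT 2 and dKO 3 together it was called, with edgeR adjusted p = 0.0333 in a range of 0.0333 to 0.468. Per length, the neuropilins were the abundant receptors: Nrp2 was at 96.5 TPM in dKO and 82.8 TPM in WT, Nrp1 at 47.4 TPM in dKO and 64.5 TPM in WT, and Flt1 at 0.915 TPM in dKO and 5.05 TPM in WT.

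Genes that process VEGF-C and VEGF-D were lower in dKO wherever they were called, with 5 of 7 tested members lower and 0 higher, against 28.7% and 28.6% of all tested genes. Their median log2 fold change was -0.76, and 3 stayed lower in the test against a 1.5-fold change. Without WT 2 and dKO 3 together, 5 were lower and 1, Plat, was higher. Adamts14, a protease of the family that activates VEGF-C, was at 1.82 ± 0.927 CPM in dKO and 58.1 ± 10.4 CPM in WT, a change of -4.99 ± 0.33 on the log2 scale (edgeR adjusted p = 6.84e-06). Plau, the urokinase gene whose product generates plasmin, was at 121 ± 4.71 CPM in dKO and 278 ± 3.07 CPM in WT, and Furin, a proprotein convertase gene, at 145 ± 9.44 CPM in dKO and 246 ± 41.2 CPM in WT (edgeR adjusted p = 8.77e-07 and 0.00052). Ccbe1, a secreted cofactor of VEGF-C activation, was at 43.8 ± 15.9 CPM in dKO and 187 ± 43.6 CPM in WT (edgeR adjusted p = 0.00214), with dKO 3 the lowest library. Ctsd, the cathepsin D gene, changed by -0.42 ± 0.11 on the log2 scale (edgeR adjusted p = 0.0107). Ccbe1 and Ctsd were named after their values were seen. Adamts3, the main VEGF-C activating protease, and Plg, the plasminogen gene, had 0 counts in all 6 libraries, and Ccbe1 overlaps Gm15958, Furin Gm44851 and Ctsd Gm49369.

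Of 21 tested VEGF receptor signalling genes, 3 were higher, 9 lower and 9 not called, which is 14.3% higher and 42.9% lower against 28.6% and 28.7% of all tested genes. Without WT 2 and dKO 3 together 5 were higher, and in the 1.5-fold test 5 were lower. Plcg2, a phospholipase C gene, was at 61.8 ± 5.16 CPM in dKO and 630.5 ± 24.9 CPM in WT, and Src, a kinase gene, at 65.5 ± 4.59 CPM in dKO and 149 ± 2.96 CPM in WT (edgeR adjusted p = 2.58e-08 and 2.51e-06). Pik3cb, a catalytic subunit gene of phosphoinositide 3-kinase, went the other way, at 207 ± 6.80 CPM in dKO and 39.3 ± 1.49 CPM in WT (edgeR adjusted p = 4.48e-08). The median of the list, -0.009, was close to that of all tested genes. These genes also serve many other receptors.

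The oxygen-sensing genes that control Vegfa included Hif1a, the regulated subunit of the hypoxia-inducible factor, at 217 ± 15.6 CPM in dKO and 203 ± 41.7 CPM in WT, which did not pass (edgeR adjusted p = 0.578). Without WT 2 its log2 fold change was 0.27 (edgeR adjusted p = 0.0305, range 0.000975 to 1 over the alternatives, the 1.5-fold test included). Epas1, the gene of the related HIF-2 alpha subunit, had 0, 0 and 3 counts in the dKO libraries and 0 counts in all WT libraries. Of 10 tested members, 2 (20%) were higher and 5 (50%) lower, against 28.6% and 28.7% of all tested genes, and in the 1.5-fold test 1 was higher and 2 were lower. Egln3, a prolyl hydroxylase gene that marks the factor for destruction, was at 0 counts in every dKO library and at 33.6 ± 1.30 CPM in WT, at least 113-fold lower in dKO against 12 counts per library. Cited2, a gene whose product competes with the factor for its coactivators, was higher at 254 ± 15.7 CPM in dKO against 97.8 ± 5.39 CPM in WT, and the coactivator gene Crebbp was lower, at 34.9 ± 2.97 CPM in dKO against 67.2 ± 0.767 CPM in WT (edgeR adjusted p = 1.15e-06 and 2.58e-05).

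Of 16 hypoxia target genes, 6 (37.5%) were higher, 4 (25%) lower and 6 not called, near the shares of 28.6% and 28.7% over all tested genes. Pgk1, a glycolytic enzyme gene, was at 924 ± 32.1 CPM in dKO and 292 ± 16.9 CPM in WT, while Ddit4, an inhibitor gene of mTORC1 signalling, was at 82.0 ± 8.83 CPM in dKO and 360.5 ± 18.7 CPM in WT (edgeR adjusted p = 2.85e-07 for both). The median log2 fold change of the list was 0.27. The lower genes include Egln3, which is also in the oxygen-sensing list. The higher genes include Adm, of low counts, which is also among the pro-angiogenic factors below, so these calls are counted in both lists. Vegfa, itself a target of this pathway, is not in that list.

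Among other pro-angiogenic factors, 2 of 11 tested (18.2%) were higher, 3 (27.3%) lower and 6 not called, against 28.6% and 28.7% of all tested genes. Without WT 2 the number higher was 4, with the chemokine gene Cxcl5 and Angptl4 added (edgeR adjusted p = 0.0133 and 0.036), both named after their values were seen. Pdgfb, a ligand gene for pericyte recruitment, was at 138 ± 7.87 CPM in dKO and 40.0 ± 3.20 CPM in WT, and Apln, the apelin gene, at 5.65 ± 0.70 CPM in dKO and 13.0 ± 4.36 CPM in WT (edgeR adjusted p = 5.98e-07 and 0.00352). Adm, the adrenomedullin gene, had 20, 24 and 17 counts in the dKO libraries and 0 in WT, at least 1.89-fold higher. Among anti-angiogenic factors, 3 of 7 tested (42.9%) were higher, 2 (28.6%) lower and 2 not called, against the same shares of all tested genes. Adamts1, a protease gene whose product binds VEGF-A, was at 637 ± 23.1 CPM in dKO and 19.3 ± 5.93 CPM in WT, and Thbs1, the thrombospondin-1 gene, changed by 1.96 ± 0.12 on the log2 scale (edgeR adjusted p = 1.78e-06 and 1.61e-06). Thbs1 overlaps Gm29233 on the other strand. Timp3, also called higher and named after its values were seen, had 50, 43 and 11 counts in the dKO libraries and 9, 4 and 0 in the WT libraries. It lost its call without dKO 1, without dKO 2 and without WT 2 (edgeR adjusted p = 0.0933, 0.0724 and 0.0671), and it overlaps Syn3 on the other strand. Col18a1, the source of endostatin, changed by -4.66 ± 0.09 on the log2 scale (edgeR adjusted p = 1.05e-08). It overlaps Slc19a1 on the other strand, but their exons do not overlap.

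**Figure D4:**
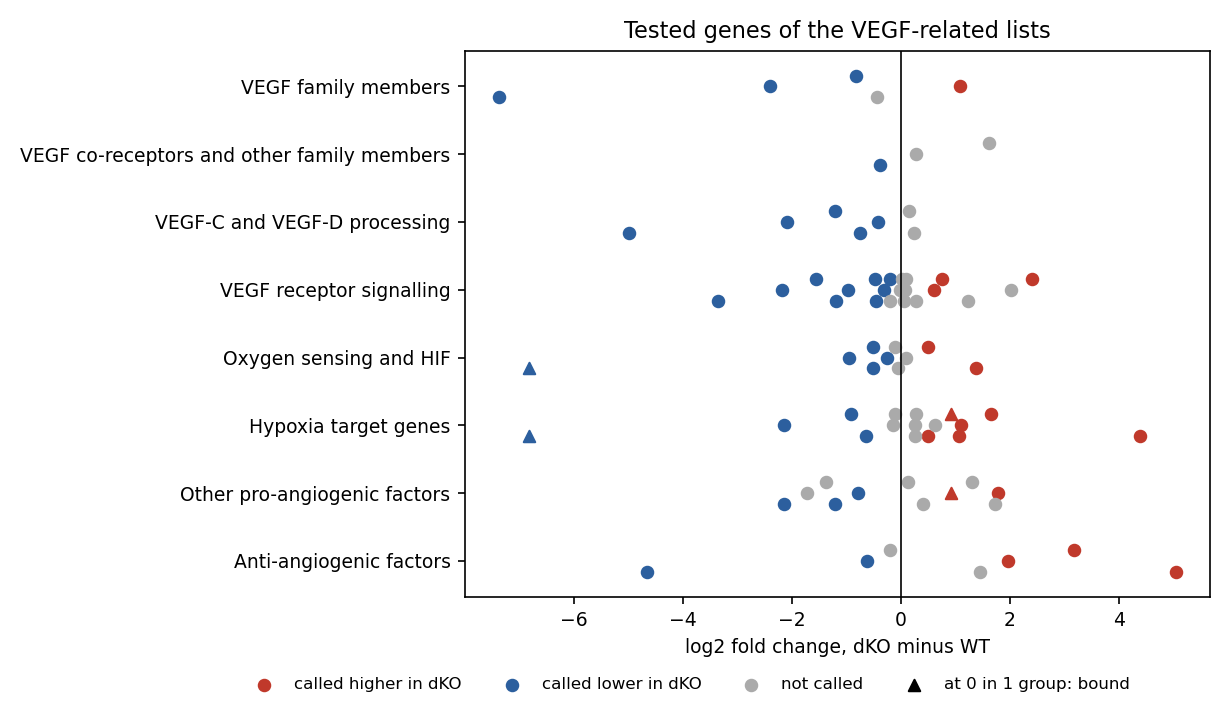
Log2 fold change, dKO minus WT, of every tested gene of 8 VEGF-related lists, 1 point per gene, red where called higher in dKO, blue where called lower and grey where not called. Triangles are genes at 0 in 1 group, drawn at their bound against 12 counts per library. The VEGF-C and VEGF-D processing genes have 5 blue points and no red one, while the other large lists hold both.

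Flt1, Flt4 and Kdr are best known from vessel cells, so markers of other cell types were read beside them. Of 15 blood endothelial markers, Kdr, Cldn5, Emcn, Robo4 and Sox17 were at 0 in all 6 libraries, and 5 were tested. Of those tested, 2 (40%) were called higher and 1 (20%) lower, against 28.6% and 28.7% of all tested genes. The summed marker level was 88.0 to 105 CPM in dKO and 60.0 to 67.8 CPM in WT, most of it from Eng, at 74.1 ± 7.81 CPM in dKO and 56.6 ± 2.62 CPM in WT, and from Egfl7, at 19.5 ± 3.60 CPM in dKO and 5.89 ± 0.80 CPM in WT. Both were called higher in dKO (edgeR adjusted p = 0.00686 and 5.1e-05), Egfl7 overlaps Agpat2 and Eng overlaps Fpgs. Pecam1, at 10, 12 and 0 counts in the dKO libraries and 8, 44 and 50 in the WT libraries, did not pass (edgeR adjusted p = 0.128). Esam, at 25, 34 and 25 counts in the dKO libraries and 12, 25 and 11 in the WT libraries, did not pass either (edgeR adjusted p = 0.209). Pecam1 and Esam were named after their values were seen. Plvap, a vessel diaphragm gene, had 6, 4 and 0 counts in the dKO libraries and 17, 35 and 24 counts in the WT libraries and was called lower (edgeR adjusted p = 0.0319), which ended in all single omissions but that of dKO 1, for instance without WT 2 (0.124). Of 7 lymphatic markers, Prox1, Ccl21a and Mmrn1 were at 0 in all 6, and the sum was 0.791 to 2.56 CPM in dKO and 0.151 to 0.521 CPM in WT, with Pdpn called higher and Reln not called (edgeR adjusted p = 0.103). Without dKO 3 Reln was called higher too (edgeR adjusted p = 0.0231). Pdpn had 43, 15 and 19 counts in the dKO libraries and 0 in WT, at least 2.42-fold higher against 12 counts per library. With the stricter filter (50 counts in 3 libraries), or with counts divided by 4, 0 lymphatic markers were called higher. Of 8 leukocyte markers, 3 were tested, and all 3 (Csf1r, Cd68 and Itgam) were called higher, as were 28.6% of all tested genes. With the stricter filter, or with counts divided by 4, 2 were called higher. Itgam had 13, 13 and 20 counts in the dKO libraries and 0 in WT, at least 1.41-fold higher, and overlaps Gm49368. Cd68 was at 15.6 ± 1.80 CPM in dKO and 2.15 ± 0.207 CPM in WT. Lyz2, not tested, had 0, 0 and 4 counts in the dKO libraries and 0, 6 and 0 in the WT libraries. Adgre1, a macrophage marker, was not tested and had 81, 103 and 0 counts in the dKO libraries and 0 in WT. The leukocyte sum was 77.0 to 209 CPM in dKO and 3.30 to 16.3 CPM in WT. Csf1r, at 147 ± 72.9 CPM in dKO and 6.25 ± 6.99 CPM in WT, made most of that sum, overlaps Hmgxb3 and lost its call without WT 1 (edgeR adjusted p = 0.0669, against 0.0183 with all libraries), while Ptprc, the pan-leukocyte marker, had 4, 17 and 0 counts in the dKO libraries and 0 in WT, and Cd3e had 0 in all 6. Flt1, which monocytes also express, was lower in dKO. The higher blood endothelial sum in dKO came mostly from Eng and Egfl7 and the higher leukocyte sum mostly from Csf1r, while Plvap was lower. The part of monocytes or vessel cells in the Flt1 level was not tested.

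Genes of most like pattern were taken by Pearson's r of log2(CPM + 1) over the 6 libraries, among 10320 named genes with at least 5 CPM in the higher group. For Vegfa they were Zbtb17 (r = 0.9987) and Pgs1 (0.9852), and for Vegfc Nit1 (0.9951) and Zmym1 (0.9938). For Vegfb they were B4galt7 (0.9998) and Ppm1j (0.9994), for Flt1 Srsf11 (0.9999) and Snx9 (0.9992), and for Pgf Prkar1a (0.9997) and H2afv (0.9997). All 6 libraries are shared by every such pair, and a gene that separates the groups matches many others: 548 genes reached r of 0.99 with Pgf, 345 with Vegfb and 230 with Flt1, against 1 with Vegfa and 4 with Vegfc. Vegfa was at 107 CPM in WT 2 and at 44.8 to 54.0 CPM in the other libraries, so its r rests mostly on WT 2.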

How the data were processed

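RNA-seq counts of 6 libraries of 4T1 spheroids were used, 3 dKO and 3 WT. The authors deposited estimated counts per gene as whole numbers without normalization, and the columns of the series table equalled the 6 sample files. The tools named in the submitters' processing notes are HISAT2 2.2.1 and StringTie 2.2.1, and the build is GRCm38 (mm10). How reads were counted, with which gene annotation and whether by strand is not given in the sources used here, and without strand, reads of overlapping genes cannot be told apart. GENCODE M21 matched 48058 of 48820 identifiers, and the other 762, with 0.0293% of the counts, were kept. edgeR 4.0.16 in R 4.3.3 was run with TMM, filterByExpr, robust quasi-likelihood fits and genotype as the only term. The SE is the absolute log2 fold change over the square root of F. TPM and shares used the union of exons. The fit was tested on simulated data.

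The family members, the lists and the tests were chosen with earlier results of these data known. Named genes were the 6 members, Kdr, Vegfd, Nrp1, Nrp2, Hif1a and Epas1, the 3 members of each list with the smallest adjusted p, and the 2 genes of most like pattern per tested member. The alternatives were RLE or no scaling, no or a stricter filter (50 counts in 3 libraries), a fit that was not robust, DESeq2 1.42.0, counts divided by 4, a replicate block, a 1.5-fold test, a threshold of 0.01 and libraries left out.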

Additional observations from a re-analysis of the deposited data

How the results depend on the processing

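Under 17 alternatives Vegfb stayed called higher, and Pgf and Flt1 stayed called lower, with log2 fold changes of 1.04 to 1.14, -8.37 to -6.68 and -2.56 to -2.17. Vegfa turned sign without WT 2 and without WT 2 and dKO 3 together (0.058 and 0.063), with -0.66 to 0.058 over libraries left out singly; these values come from fewer samples. Vegfc, at -0.82, lost its call in the test against a 1.5-fold change, which asks for more by construction, and at a threshold of 0.01, and was -1.01 to -0.53 with 1 library left out. All called genes numbered 4556 in the 1.5-fold test and 8041 to 9120 with 1 library left out. The Pgf share difference was -12.5 percentage points with the longest transcript as length, against -10.9 with the union of exons. Dividing by total counts alone moved the median of all genes by 0.014. The labels state no pairing of same-numbered libraries. Correlations of their deviations from the group mean were -0.105, 0.109 and 0.156, against -0.199 to 0.155 for libraries of unlike number. Deviations of 3 libraries sum to 0 in each group, so these values cannot decide whether same-numbered libraries were paired. With the replicate block 8658 genes were called, the log2 fold changes were 1.08 for Vegfb, -7.40 for Pgf, -2.42 for Flt1, -0.78 for Vegfc and -0.32 for Vegfa, and no call of these 5 genes changed, while among the listed genes Nrp2 and Cxcl5 became called (adjusted p = 0.0402 and 0.0184) and Plvap and Grb2 lost their call (0.0666 and 0.0515). Genes under 12 counts per library are limited by depth.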
